A study of Mus musculus with 6 samples.

Results

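Ccdc genes are mouse genes named for a coiled-coil domain, and 85 of them were followed here among 15207 genes with a level on Affymetrix exon arrays of testis RNA. The members were all genes whose current symbol is Ccdc followed by a digit and that had at least 3 probe sets carrying that symbol alone. Of 88 such symbols on the array, Ccdc71l had too few probe sets, and Ccdc42 and Ccdc87 were set aside because they were already known to be among the strongest falls of these data. Another 53 current Ccdc symbols had no probe set carrying the symbol alone and are not analysed here. The 85 genes had 3 to 40 probe sets each, with a median of 12 and 1090 in all. No filter on low signal was applied, so every member was tested.

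The arrays held total RNA of whole testes, 3 arrays of wild-type mice at P21 (Wt P21, counted in days after birth) and 3 of adult mice, 2 to 6 months old, homozygous for the Fn (floxed with neo) allele of Dazap1 (Fn adult). All mice shared a background in which C57BL/6 was mixed with 129. The 3 RNA preparations of a group are labelled as biological replicates, and the number of mice behind each is not given in the sources used here. Dazap1 encodes an hnRNP protein that binds RNA, and the Fn allele gives an aberrant form of it in all tissues, not in the germ line alone. By the study, few homozygotes live to adulthood, those that do grow poorly, and their germ cells stop before the meiotic division, so P21 testes were taken as the nearest wild-type match in germ cell stages. Genotype and age differ together between the groups and cannot be told apart. Dazap1 itself is not analysed here.

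A coiled coil is a bundle of alpha helices wound around one another, and it serves as a rod, a spacer or a clamp in very different proteins. The Ccdc symbol is a placeholder for genes that were named by this predicted shape before their role was known, so the members do not form a family by descent. Many of them were later found to build the axoneme, the microtubule core shared by motile cilia and the sperm tail, where they dock the dynein motors or set the spacing of the repeats. Others act at the centrosome, in vesicle traffic, in the spliceosome or outside the cell. Male germ cells switch on axoneme genes late in meiosis and after it, well before the tail is built.

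The deposited values are log2 intensities of probe sets, and the level of a gene is the median over its probe sets. Levels are compared between arrays for the same gene only. Differences are given as Fn adult minus Wt P21 on the log2 scale, with limma's moderated test and Benjamini-Hochberg adjustment over all 15207 genes, and a gene is said to rise or fall where its adjusted p lies under 0.05. The array medians lay between 8.76 and 9.10, the lower quartiles of the arrays between 7.36 and 7.56, and a level below the lower quartile is taken as dim. Wt P21 replicate 3 stood apart from the other arrays of its group, so values without it (on 5 arrays) are given beside those on 6. Over all genes 1227 rose and 139 fell, with a median difference of 0.07, and after quantile normalization 826 rose and 452 fell, with a median difference of -0.05. None of the 10 pachytene and 8 Sertoli genes measured was dim on all 6 arrays, where 2862 of all 15207 genes were. The same held for the endothelium and smooth muscle lists, so this does not single out testis. In whole testes, fewer cells of a type and less RNA per cell cannot be told apart.

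Only Ccdc24 and Ccdc178 passed the threshold over the 6 arrays, and both fell in Fn adult testes. None of the 85 members rose, where 8.07% of all genes rose, and 2.35% fell, where 0.914% of all genes fell. In either direction 8.98% of all genes passed. At an unadjusted p under 0.05 there were 18 of 85 members and 4052 of 15207 genes. The median difference of the members was -0.05 against 0.07 for all genes, and 57.6% of the members had a negative difference, as against 41.3% of all genes. After quantile normalization these shares were 77.6% and 56.3%. Ccdc42 and Ccdc87, which the choice of members leaves out, had differences of -1.76 (adjusted p = 0.00698) and -1.24 (adjusted p = 0.0295), and with them 4 of 87 genes fell.

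Ccdc24, a gene with no role assigned here, stood at 9.84, 9.46 and 10.41 on the Wt P21 arrays (replicates 1, 2 and 3, the order used throughout) and at 8.61, 9.08 and 8.77 on the Fn adult arrays. All 3 Fn adult levels lay below all Wt P21 levels. The mean went from 9.90 ± 0.48 (SD, n = 3) to 8.82 ± 0.24 (SD, n = 3), a 2.11-fold fall (limma, adjusted p = 0.0294). Each of its 16 probe sets was lower in Fn adult testes, with differences of -1.68 to -0.58, and in 14 of them the groups did not overlap. Without Wt P21 replicate 3 Ccdc24 still fell, by 0.83 (adjusted p = 0.0177). The call was lost when Wt P21 replicate 1 was left out (adjusted p = 0.0681) or any Fn adult array was (0.141, 0.062 and 0.108 in order).

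Ccdc178, likewise of no role assigned here, had Wt P21 levels of 9.29, 9.22 and 10.76 and Fn adult levels of 6.73, 8.24 and 7.90. Fn adult replicate 1 stood more than a log2 unit below the other Fn adult arrays and was dim, so the size of the fall is uncertain. The difference was -2.14 with a 95% interval of -3.23 to -1.04 (limma, adjusted p = 0.0306), and Ccdc178 still fell without Wt P21 replicate 3 (-1.63, adjusted p = 0.0206). All 24 of its probe sets were lower in Fn adult testes with no overlap of the groups, with differences of -3.35 to -0.73. The call of Ccdc178 was lost when Wt P21 replicate 1 or 2 was left out (adjusted p = 0.0543 and 0.0611) or any Fn adult array was (0.114, 0.0528 and 0.0849 in order). Leaving out the dim array gave a difference of -1.69.

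The promoter of Ccdc24 is shown next to those of Ccdc113, Ccdc60 and Ccdc148, which had negative differences that did not pass on 6 arrays, to show which letters stand before the start of these genes. Each is the stretch of 250 bases before the start in RefSeq (build GRCm38.p6), read 5′ to 3′ on the strand of the gene. Capitals mark GTTGCC, the core of the X-box bound by RFX factors, which control cilium genes, TGACGT, the core of the CRE bound by CREM, a regulator of spermatid genes, and CAACTG, a MYB core, each on either strand.
Ccdc24 promoter, chr4:117872471-117872720, strand minus: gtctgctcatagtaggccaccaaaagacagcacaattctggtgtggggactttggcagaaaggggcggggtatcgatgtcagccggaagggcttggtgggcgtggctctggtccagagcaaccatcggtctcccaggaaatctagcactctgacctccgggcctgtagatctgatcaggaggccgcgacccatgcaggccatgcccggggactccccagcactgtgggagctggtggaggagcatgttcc
Ccdc113 promoter, chr8:95533850-95534099, strand plus: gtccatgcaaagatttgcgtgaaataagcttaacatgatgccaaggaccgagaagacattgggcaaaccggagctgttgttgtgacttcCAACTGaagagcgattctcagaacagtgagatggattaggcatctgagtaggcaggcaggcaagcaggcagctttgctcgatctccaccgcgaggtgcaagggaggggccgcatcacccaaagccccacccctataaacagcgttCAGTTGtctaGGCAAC
Ccdc60 promoter, chr5:116288986-116289235, strand minus: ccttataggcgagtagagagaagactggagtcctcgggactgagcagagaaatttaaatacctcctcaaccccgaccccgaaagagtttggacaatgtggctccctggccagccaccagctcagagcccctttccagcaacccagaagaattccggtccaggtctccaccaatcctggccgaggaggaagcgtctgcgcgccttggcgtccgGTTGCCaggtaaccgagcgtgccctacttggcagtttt
Ccdc148 promoter, chr2:59160684-59160933, strand minus: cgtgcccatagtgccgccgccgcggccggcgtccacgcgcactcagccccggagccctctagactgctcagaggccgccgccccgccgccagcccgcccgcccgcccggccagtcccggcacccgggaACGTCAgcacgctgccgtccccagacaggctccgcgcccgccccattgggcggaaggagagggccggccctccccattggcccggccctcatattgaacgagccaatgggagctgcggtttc
Ccdc24 held none of these strings in this window. Ccdc113 held the X-box core 6 bases before the start and the MYB core at 16 and 161 bases, Ccdc60 the X-box core at 38 bases, and Ccdc148 the CRE core at 122 bases. Promoters were at hand for 70 of the 85 members. The X-box core stood in 14.3% of these 70 and in 11.8% of 27025 genes, the CRE core in 14.3% and 7.29%, and the MYB core in 5.71% and 12.6%. The 10 members with a CRE core were Ccdc28a, Ccdc47, Ccdc59, Ccdc86, Ccdc124, Ccdc136, Ccdc148, Ccdc149, Ccdc184 and Ccdc186, and their differences ran from -0.86 for Ccdc148 to 0.41 for Ccdc47. The promoters shown beside that of Ccdc24 were picked by no stated rule, and each holds a match. They do not stand for the members with negative differences. Ccdc83, Ccdc92 and Ccdc130, with differences of -1.02, -0.81 and -0.70, were not among the members with a match to any of these strings. Whether their promoters were at hand is not given here. All matches are of letters only, and no binding was measured.

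The members of the sperm tail and the motile cilium had lower values in Fn adult testes in 10 of 11 cases, and none of them passed the threshold. The list held 16 genes, of which 11 were members. Their median difference was -0.61, or -0.27 without Wt P21 replicate 3. After quantile normalization it was -0.71, and Ccdc40, Ccdc65 and Ccdc96 fell. With quantile normalization and without Wt P21 replicate 3 it was -0.51, with 10 of 11 genes negative. Ccdc40, Ccdc65, Ccdc96 and Ccdc151 fell in that setting, where 6.57% of all genes fell. In every one of the 11 genes Wt P21 replicate 3 had the highest level of all 6 arrays, as deposited and after quantile normalization. The median of the 11 levels was 9.57, 9.73 and 10.48 on Wt P21 replicates 1, 2 and 3 and 9.50, 9.88 and 9.40 on the Fn adult arrays.

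**Figure D1:**
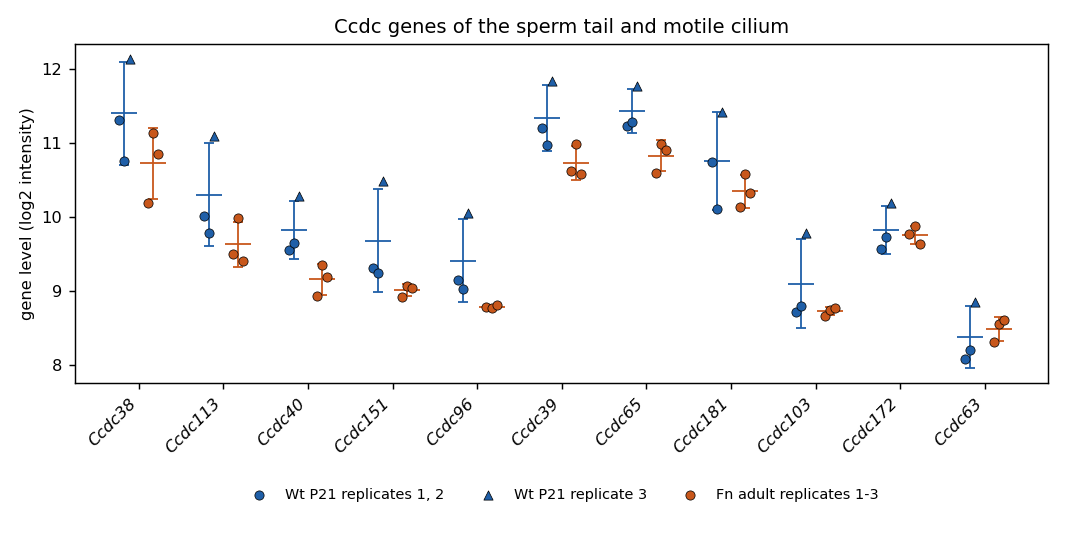
Gene level (log2 intensity, vertical axis) of the 11 Ccdc genes of the sperm tail and motile cilium on each array, ordered by their difference, with blue for Wt P21, orange for Fn adult, a triangle for Wt P21 replicate 3, and horizontal bars with whiskers for the mean and SD of 3 arrays. The triangle is the top point of every gene, and only in Ccdc40, Ccdc65, Ccdc96 and Ccdc151 do all orange points lie below all blue ones.

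Ccdc39 and Ccdc40 form the ruler that sets the spacing of inner dynein arms and radial spokes along the axoneme. Ccdc40 had Wt P21 levels of 9.55, 9.64 and 10.28 and Fn adult levels of 8.93, 9.35 and 9.19, with no overlap, and a difference of -0.67 (95% interval -1.15 to -0.19, adjusted p = 0.0834). All 29 of its probe sets were lower in Fn adult testes. Ccdc39 had levels of 11.21, 10.97 and 11.84 against 10.62, 10.99 and 10.58, where 1 Fn adult array reached just above Wt P21 replicate 2, and a difference of -0.61 (adjusted p = 0.131). On 5 arrays the differences of Ccdc40 and Ccdc39 were -0.44 and -0.36, with adjusted p values of 0.0695 and 0.141.

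Ccdc65, a part of the nexin-dynein regulatory complex that ties neighbouring doublets together, had levels of 11.22, 11.29 and 11.77 against 10.59, 10.99 and 10.90, again without overlap. Its difference was -0.60 (95% interval -1.01 to -0.18, adjusted p = 0.0764) on 6 arrays and -0.43 (adjusted p = 0.074) on 5, and all 10 of its probe sets were lower in Fn adult testes. Ccdc65 fell when its probe sets were averaged (-0.68, adjusted p = 0.0476) and after quantile normalization (-0.69, adjusted p = 0.038). Ccdc151, which docks the outer dynein arms, had levels of 9.31, 9.24 and 10.48 against 8.91, 9.07 and 9.03 and a difference of -0.67 (adjusted p = 0.196). Here Wt P21 replicate 3 lay 1.21 above the average of replicates 1 and 2, and without it the difference was -0.27. Without that array Ccdc151 fell after quantile normalization.

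Ccdc113 and Ccdc96, partners at the ciliary base and in the axoneme, had differences of -0.67 (adjusted p = 0.223) and -0.62 (adjusted p = 0.153) on 6 arrays, and of -0.27 and -0.30 on 5. Ccdc96 did so without overlap, with levels of 9.14, 9.03 and 10.05 against 8.78, 8.77 and 8.81, while Fn adult replicate 2 of Ccdc113 at 9.98 lay within the Wt P21 range. From its brighter probe sets alone, Ccdc113 fell by 1.00 on 6 arrays (adjusted p = 0.036). Ccdc38, found at the manchette and the tail of the spermatid, had levels of 11.31, 10.75 and 12.13 against 10.19, 11.13 and 10.85, which overlapped, and a difference of -0.68 (adjusted p = 0.257) on 6 arrays and -0.31 on 5. Ccdc103, needed to attach dynein arms, and Ccdc181, a microtubule-binding protein of the tail, had differences of -0.37 and -0.41 over 6 arrays and of -0.03 and -0.08 over 5, with replicate 3 of Wt P21 left out. Ccdc172, which binds a tektin of the midpiece, was at -0.07 on 6 arrays and 0.11 on 5, and Ccdc63, needed to form the tail, was at 0.11 and 0.35, so that 2 of the 11 were positive on 5 arrays. The member of the acrosome list, Ccdc136, had a difference of -0.31, which turned to 0.06 without Wt P21 replicate 3.

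Among all 85 members, Wt P21 replicate 3 was high beyond the genes of the tail. It lay above the mean of Wt P21 replicates 1 and 2 in 72 of the 85 members, or 84.7%, by a median of 0.49, against 66.5% and 0.14 for all genes. In 52 members, or 61.2%, it was the highest of the 6 arrays, against 31.9% of all genes. After quantile normalization it lay above in 71.8% of members and 45.8% of all genes. The median SD of the members was 0.323 among the 3 Wt P21 arrays, 0.114 among Wt P21 replicates 1 and 2, and 0.125 among the Fn adult arrays. On the same array all 10 pachytene genes and 11 of 12 haploid spermatid genes lay above the mean of Wt P21 replicates 1 and 2, by medians of 0.34 and 0.61. So did 5 of 5 endothelium, 7 of 8 macrophage, 4 of 5 fat, 4 of 5 multiciliated and 4 of 6 Leydig genes. The same was found in 3 of 6 epididymis and 2 of 6 spermatogonial genes, and in none of the 8 Sertoli and 5 smooth muscle genes. The pachytene genes had a median difference of -0.40 on 6 arrays and -0.22 without Wt P21 replicate 3, with 9 of 10 negative in each fit. Piwil1 and Ybx2 fell in both fits, where 0.914% and 2.41% of all genes fell. The summed signal of the spermatid markers was 12.16, 12.24 and 13.08 on the Wt P21 arrays and ran from 12.13 to 12.59 on the Fn adult arrays, on the log2 scale. Acr was the largest part of this sum on every array, at 11.23, 11.31 and 12.10 in Wt P21 and 10.27, 10.92 and 10.78 in Fn adult testes. The sum therefore follows Acr more than any other gene of the list. Among the spermatid genes listed, Tnp1 was dim on all arrays. Prm1, Prm2, Tnp2 and Acr had differences of 1.09, -0.10, -0.16 and -0.89 on 6 arrays, none past the threshold. On 5 arrays 5 of the 12 spermatid genes (Acrv1, Akap4, Odf1, Prm1 and Spaca1) rose, where 16.1% of all genes did. The part of the cells behind these markers in the Ccdc values was not tested.

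**Figure D2:**
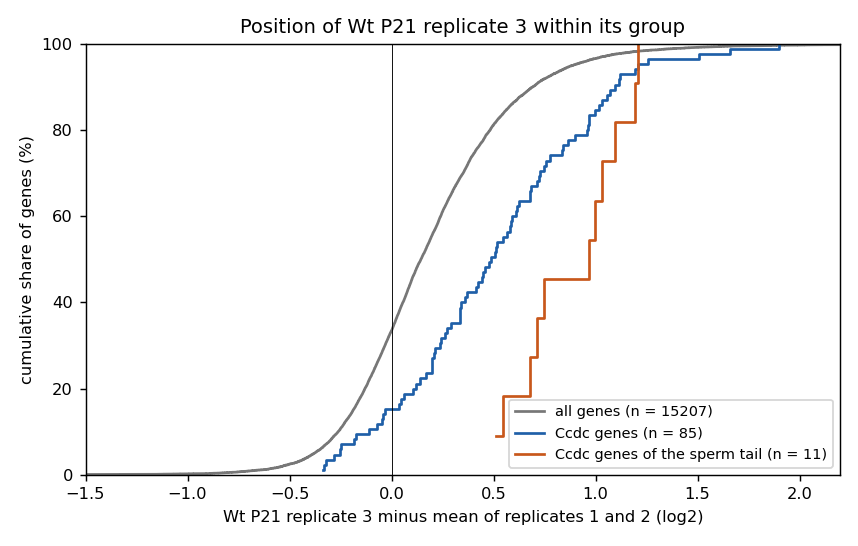
Cumulative share of genes (vertical axis, percent) by how far Wt P21 replicate 3 lay above the mean of Wt P21 replicates 1 and 2 (horizontal axis, log2), for all 15207 genes in grey, the 85 Ccdc genes in blue and the 11 sperm tail members in orange. The blue line crosses 0 at a lower share than the grey one, with 72 of 85 members above 0, and the orange line begins only at 0.51.

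Without Wt P21 replicate 3, 8 members rose and 3 fell, that is 9.41% and 3.53%, while 16.1% of all genes rose and 2.41% fell and 18.6% passed in either direction. At an unadjusted p under 0.05 there were 29 of 85 members and 5500 of 15207 genes. The median difference was 0.03 against 0.14 for all genes. A negative difference was found in 38 of 85 members and in 5342 of 15207 genes. Ccdc24 and Ccdc178 passed in both fits, and the other 9 passed on the 5 arrays only. The falls of this fit include Ccdc68, which lies on the appendages of the mother centriole. Its levels of 7.26, 7.29 and 7.02 against 6.68, 6.55 and 6.94 were dim on every array, so no fold is given, and it differed by -0.55 (adjusted p = 0.0331).

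The rise of Ccdc54, a gene of no assigned role, was the largest on the 5 arrays. Its levels were 6.78 and 6.77 on Wt P21 replicates 1 and 2, which are dim, 8.67 on replicate 3, and 7.71, 8.30 and 8.25 on the Fn adult arrays. Replicate 3 thus lay 1.90 above its group and above all Fn adult arrays, the widest such gap of the 85 members. The difference was 1.32 on 5 arrays (95% interval 0.90 to 1.73, adjusted p = 0.00335) and 0.68 on 6 (adjusted p = 0.39). Ccdc159 was nearer to its group, with Wt P21 levels of 7.28, 7.44 and 7.82 and Fn adult levels of 7.92, 8.30 and 8.04. Its groups did not overlap with or without replicate 3, its difference was 0.73 on 5 arrays (adjusted p = 0.0139) and 0.58 on 6 (adjusted p = 0.0736), and it rose on 6 arrays when its probe sets were averaged (0.53, adjusted p = 0.0189).

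**Figure D3:**
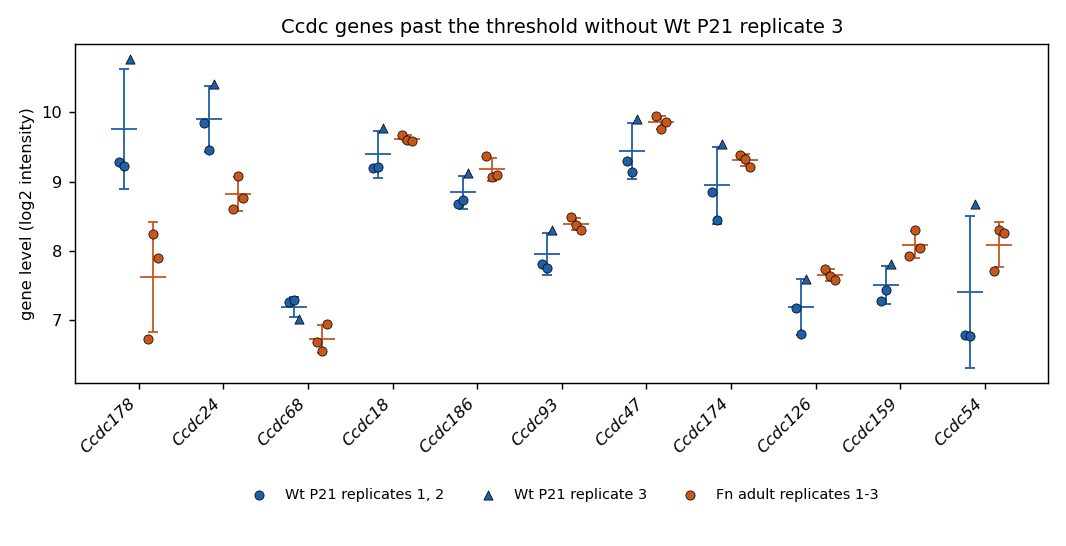
Gene level (log2 intensity, vertical axis) on each array of the 11 Ccdc genes past the threshold without Wt P21 replicate 3, ordered by their difference on 5 arrays, with colours, triangles, bars and whiskers (mean and SD of 3 arrays) as for the sperm tail genes. In Ccdc24 and Ccdc178 all orange points lie below all blue ones, and in Ccdc54 the triangle lies at 8.67 while the blue circles lie at 6.78 and 6.77.

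The list of membrane traffic and the endoplasmic reticulum held 9 genes, of which 7 were members. None of them passed over 6 arrays, 6 had a positive difference and the median was 0.37, or 0.20 after quantile normalization. Without Wt P21 replicate 3, Ccdc93, Ccdc47 and Ccdc186 rose, and the median was 0.44. Ccdc93, a subunit of the CCC complex that recycles proteins from endosomes, had levels of 7.81, 7.74 and 8.30 against 8.48, 8.37 and 8.30, and its differences were 0.61 on 5 arrays (adjusted p = 0.0141) and 0.43 on 6 (adjusted p = 0.142). Ccdc22, another subunit of that complex, had a difference of 0.04, with a 95% interval of -0.26 to 0.34, and of 0.07 on 5 arrays. Ccdc47, a partner of the protein-conducting channel of the endoplasmic reticulum, had levels of 9.29, 9.14 and 9.90 against 9.95, 9.76 and 9.86. It differed by 0.64 on 5 arrays (adjusted p = 0.0132) and by 0.41 on 6 (adjusted p = 0.223).

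Ccdc186, which acts in the making of dense core vesicles, differed by 0.47 on 5 arrays (adjusted p = 0.0464). Ccdc115, an assembly factor of the proton pump of endosomes and lysosomes, had levels of 10.88, 10.68 and 10.73 against 10.97, 11.69 and 10.91. Fn adult replicate 2 carried most of its difference of 0.42 (adjusted p = 0.238), which was 0.40 on 5 arrays. Ccdc32, which helps to assemble the clathrin adaptor AP-2 in human cells, was at 0.37 (adjusted p = 0.159), with no overlap of the groups, and at 0.44 on 5 arrays. Its 5 probe sets did not agree, with 3 higher and 2 lower in Fn adult testes. The groups did not overlap in 2 of the higher and 1 of the lower ones. After quantile normalization without Wt P21 replicate 3, 4 of the 8 rises remained, those of Ccdc54, Ccdc93, Ccdc126 and Ccdc159.

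**Figure D4:**
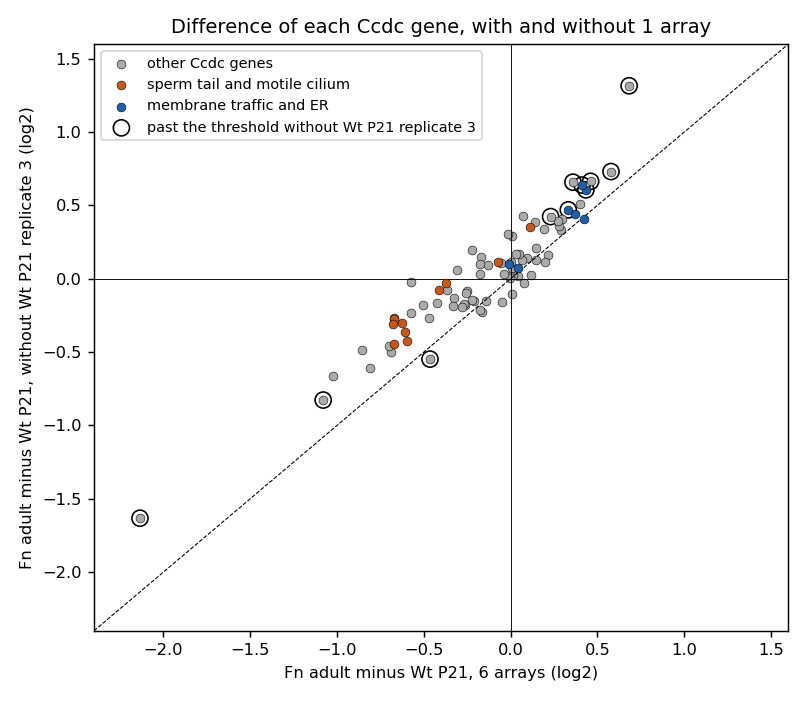
Difference Fn adult minus Wt P21 (log2) of each of the 85 Ccdc genes over 6 arrays (horizontal axis) and without Wt P21 replicate 3 (vertical axis), with sperm tail members in orange, membrane traffic and endoplasmic reticulum members in blue, other members in grey, a ring around the 11 genes past the threshold without that array, and a dashed line of equal values. Most points lie above the dashed line, and the lowest is Ccdc178 at -2.14 and -1.63. Both axes share the Fn adult arrays and Wt P21 replicates 1 and 2.

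Of the 16 genes of the nucleus and RNA list 11 were members, and none passed over 6 arrays. The median difference of the list was -0.23 on 6 arrays and -0.08 on 5. Ccdc130, a homologue of a yeast splicing factor, had levels of 10.53, 10.85 and 11.41 against 10.14, 10.42 and 10.12, without overlap, a difference of -0.70 (95% interval -1.20 to -0.20, adjusted p = 0.0827) and all 12 probe sets lower in Fn adult testes. On 5 arrays its difference was -0.46 (adjusted p = 0.0668). It fell after quantile normalization (-0.83, adjusted p = 0.0368) and without Wt P21 replicate 1 (-0.90, adjusted p = 0.0474). Ccdc174, which binds the exon junction complex, rose without Wt P21 replicate 3 by 0.66 (adjusted p = 0.021), from levels of 8.85 and 8.45 to 9.38, 9.32 and 9.22, while replicate 3 stood at 9.55. Ccdc106, a p53-binding protein, had a difference of -0.37 and Ccdc124, a ribosome-associated protein, one of -0.28, with adjusted p values of 0.384 and 0.22. On 5 arrays Ccdc106 was at -0.08 and Ccdc124 at -0.19.

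At the centrosome and spindle 7 of 13 listed genes were members and none passed over 6 arrays. Their median difference turned from -0.13 on 6 arrays, where 3 of 7 were positive, to 0.09 on 5, where 5 of 7 were. Besides Ccdc68, Ccdc57, which binds centrosomal microtubules, had a difference of 0.29 (adjusted p = 0.256), Ccdc120, a centriolar appendage protein, one of -0.18 (adjusted p = 0.42), and Ccdc77 one of -0.17 (adjusted p = 0.713). On 5 arrays these were 0.33, -0.21 and 0.15. Ccdc120 fell on the 5 arrays after quantile normalization. Among 6 members that act as signalling adaptors (median -0.20 on 6 arrays and -0.11 on 5), Ccdc88c, the Dishevelled-binding protein Daple, had levels of 9.75, 9.68 and 10.16 against 9.51, 9.54 and 9.53, without overlap, and a difference of -0.33 (adjusted p = 0.202), or -0.19 on 5 arrays. After quantile normalization it fell by 0.50 (adjusted p = 0.0373). Ccdc88a, the actin-binding Girdin, was at -0.33, the leukocyte gene Ccdc88b at -0.25 with dim levels on every array, and Ccdc50, a ubiquitin-binding protein downstream of the epidermal growth factor receptor, at 0.22 without overlap of the groups. On 5 arrays Ccdc88a was at -0.13, Ccdc88b at -0.09 and Ccdc50 at 0.16.

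Of the 4 members listed as secreted, Ccdc126 rose without Wt P21 replicate 3, by 0.66 (adjusted p = 0.0194), from dim levels of 7.18 and 6.79 to 7.74, 7.64 and 7.57, while replicate 3 stood at 7.60. Ccdc80, a matrix protein, had a difference of -0.26, Ccdc3, made by endothelium and fat, one of 0.27, and Ccdc134 one of -0.43, with adjusted p values of 0.405, 0.314 and 0.276. On 5 arrays Ccdc80 was at -0.10, Ccdc3 at 0.39 and Ccdc134 at -0.17. The members of the mitochondrion, Ccdc51 and Ccdc127, were at 0.04 and 0.03, with 95% intervals of -0.23 to 0.31 and -0.32 to 0.38, and at 0.02 and 0.17 on 5 arrays. Ccdc18, which is on no list, rose without Wt P21 replicate 3 by 0.42 (adjusted p = 0.0377), and all 28 of its probe sets then pointed upward.

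The groups did not overlap in 29 members, or 34.1%, much as in all genes, where it was 34.5%. By direction the shares were not alike. Fn adult levels lay below all Wt P21 levels in 21 members, or 24.7%, as against 8.96% of all genes, and above them in 8 members, or 9.41%, as against 25.6%. After quantile normalization these were 31 and 2 members, or 36.5% and 2.35%, with 17.6% and 18% of all genes. Without Wt P21 replicate 3 the directions were close in number, with Fn adult levels below in 22 members, or 25.9%, and above in 24, or 28.2%, where 13.6% of all genes lay below, 40.3% above and 53.9% on either side. Several of the 21 lie outside the named lists and were singled out after their values were seen. Ccdc83 had levels of 9.71, 9.81 and 10.83 against 8.55, 9.25 and 9.50, a difference of -1.02 (adjusted p = 0.0926), and it fell after quantile normalization (-1.18, adjusted p = 0.0472). On 5 arrays Ccdc83 was at -0.66 (adjusted p = 0.0909). Ccdc148 was at -0.86 (adjusted p = 0.119), or -0.49 on 5 arrays, with all 19 probe sets lower and dim levels on the 3 Fn adult arrays.

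Of the other members without overlap, Ccdc184 stood at 8.49, 8.43 and 9.08 against 8.12, 8.24 and 8.22, a difference of -0.47 (adjusted p = 0.142), or -0.27 on 5 arrays, that passed after quantile normalization (adjusted p = 0.0365). Ccdc12, a spliceosome component, was at 8.97, 8.91 and 9.23 against 8.79, 8.81 and 8.70, a difference of -0.27 (adjusted p = 0.236), or -0.17 on 5 arrays, that also passed after quantile normalization (adjusted p = 0.0455). Both groups of arrays were tight in Ccdc12, and Wt P21 replicate 3 was again the highest. Ccdc144b and Ccdc73 had differences of -0.58 and -0.50, of which -0.24 and -0.18 were left without Wt P21 replicate 3, and Ccdc97 had one of -0.26, or -0.18 without that array. On the upper side, Ccdc25 stood at 9.10, 8.64 and 9.20 against 9.53, 9.24 and 9.37 (0.40, adjusted p = 0.18), and Ccdc59, a nuclear protein, was at 0.28 (adjusted p = 0.273). On 5 arrays these were 0.51 and 0.36. Ccdc7a had the widest gap of Wt P21 replicate 3 after Ccdc54, 1.66, with levels of 8.90, 8.63 and 10.42 against 7.90, 9.11 and 9.21 and a difference of -0.57 (adjusted p = 0.5) that was -0.02 on 5 arrays. Ccdc116 and Ccdc171 were likewise high on Wt P21 replicate 3, by 1.26 and 1.06, and their differences of -0.22 and 0.07 became 0.20 and 0.43 without it, neither of which passed. These genes too were named after their values were seen.

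Ccdc60 had levels of 12.07, 11.83 and 12.51 against 11.13, 11.66 and 11.54 and a difference of -0.69 (adjusted p = 0.075), and 15 of its 17 probe sets were without overlap. On 5 arrays its difference was -0.50 (adjusted p = 0.0771). It fell after quantile normalization (-0.74, adjusted p = 0.048) and when its probe sets were averaged (-0.62, adjusted p = 0.0467). Ccdc92, found at the centriole in human cells, had levels of 10.94, 11.75 and 11.94 against 10.53, 10.90 and 10.78 and a difference of -0.81 (adjusted p = 0.0795). Here Wt P21 replicate 1 lay nearest to the Fn adult arrays, and without it Ccdc92 fell by 1.11 (adjusted p = 0.0161). On 5 arrays, those without Wt P21 replicate 3, Ccdc92 was at -0.61 (adjusted p = 0.0912). It has 3 probe sets only. Ccdc71, by contrast, was at 11.13, 11.25 and 11.23 against 11.21, 11.20 and 11.18, a difference of -0.01 with a 95% interval of -0.27 to 0.25. Ccdc70, Ccdc125 and Ccdc149 were dim on all 6 arrays, as were Ccdc68, Ccdc85a and Ccdc88b, and no difference of theirs passed over 6 arrays.

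Axonemal dyneins and tektins, genes once named Ccdc, and kinesins were read beside the members. Of 11 axonemal dynein and tektin genes (Dnah, Dnal and Tekt) none passed, all had a negative difference and the median was -0.43, or -0.24 without Wt P21 replicate 3. That array lay above replicates 1 and 2, on average, in 10 of these 11. Of 38 genes that once had a Ccdc symbol and were renamed, Ppp1r21 rose by 0.46 (adjusted p = 0.0481) and none fell, with a median of -0.05 and Wt P21 replicate 3 highest of the 6 arrays in 30 genes. On 5 arrays 3 of the renamed genes rose, Drc7 fell by 0.60 (adjusted p = 0.0459), and their median was 0.05. Of 29 kinesin genes (Kif), Kif21a rose by 0.67 (adjusted p = 0.0481), and the median was -0.06. On 5 arrays 4 kinesin genes rose and the median was 0.13. The share that rose on 6 arrays was 2.63% of the renamed and 3.45% of the kinesin genes, against 8.07% of all genes. On 5 arrays these shares were 7.89% and 13.8%, against 16.1% of all genes, whose median difference was 0.14. The share that fell on 5 arrays was 2.63% of the renamed genes and 2.41% of all genes. Ppp1r21, Drc7 and Kif21a were named after their values were seen. The differences between these sets and the Ccdc genes were not tested.

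Wt P21 replicates 1 and 2 differed from the rest in another way. Crisp1, a secretory gene of the epididymis, had levels of 10.26, 8.74 and 4.30 on the Wt P21 arrays and a mean of 4.34 on the Fn adult arrays, and Adam7 had 7.69, 6.57 and 5.72. Of 6 measured epididymis markers, the other 4 (Lcn5, Lcn8, Lcn9 and Rnase10) were dim on all 6 arrays, and the summed signal of the list ran from 9.06 to 10.87 in Wt P21 and from 8.71 to 8.89 in Fn adult testes. Markers of multiciliated epithelium were summed to 10.16, 10.09 and 10.69 in Wt P21 and to between 10.05 and 10.12 in Fn adult testes, and Foxj1, the regulator of motile cilia, which germ cells also express, stood at 7.30, 7.41 and 8.85 in Wt P21 and at 8.22, 7.92 and 7.94 in Fn adult testes. Foxj1 rose on 5 arrays by 0.67 (adjusted p = 0.016). Scgb1a1, on the same list though secretory and not ciliated cells make it, rose on 6 (0.96, adjusted p = 0.0086). Its levels of 3.62 to 4.94 were dim throughout, so no reading on ciliated cells is taken from it. Leydig cell and macrophage genes rose in 6 of 6 and 8 of 8 cases. The part of any of these cells in the Ccdc values was not tested.

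The use of single exons was read from the splicing index, that is, the log2 value of a probe set less its gene level, array by array. Of the members, 42 had a mean level above the median probe set, and 427 of their probe sets could be tested. None passed, where 0.0142% of 91798 probe sets of all genes did. At an unadjusted p under 0.05 there were 34, or 7.96%, against 8.21% of all probe sets. Without Wt P21 replicate 3 none passed either, where 0.00109% of all did, and 15.5% of the members' probe sets and 17.4% of all had an unadjusted p under 0.05. Without the level filter none of the 1090 passed. Probe set 4809528 of Ccdc38 was 0.87 lower relative to its gene in Fn adult testes (difference -0.87, adjusted p = 0.395) and probe set 5561328 of Ccdc24 was higher by 0.50 (adjusted p = 0.303), both named after their values were seen.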

How the data were processed

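Total testis RNA was hybridised to 6 Affymetrix Mouse Exon 1.0 ST arrays, 3 per group, from different RNA preparations. The authors deposited 1 log2 value per probe set and array. Their methods name the EASANA system for the analysis of the arrays without saying how the deposited values were made, and the submitters' processing notes name build mm8. Background correction and normalization are not given in the sources used here. Array medians differed, so quantile normalization was run as an alternative. The number of arrays limits the precision, and p-values measure the spread between samples labelled as biological replicates, the number of mice in each not being stated.

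Of 229581 probe sets, 209279 carried 1 gene symbol, 4446 several and 15856 none. Of 16380 array symbols 14190 were current in assembly GRCm38.p6, 2145 were updated through a synonym and 45 did not match, and 18 of the 85 Ccdc genes were named through a synonym. Gene levels and splicing indices were fitted over all genes or probe sets with limma 3.58.1 in R 4.3.3 (lmFit and eBayes, two-sided, threshold 0.05), checked on simulated data. Splicing indices were tested where the mean of the probe set and of its gene lay above the median probe set, 8.99.

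Genes named are those past the threshold with or without Wt P21 replicate 3, up to 4 with the largest difference of each role list, and the 3 with the highest and lowest mean level. Others are said to be chosen after their values were seen, or complete a list. The members, lists and tests were chosen with earlier results of these data known. Alternatives are given in the closing section.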

Additional observations from a re-analysis of the deposited data

How the results depend on the processing

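Over all 6 arrays no Ccdc gene rose and 2 fell. The number that fell was 11 after quantile normalization (2.97% of all genes fell), 4 with the replicate number as a block (0.829%), 5 with the mean of the probe sets (1.51%), which also gave 1 rise (13.1%), 4 of 65 genes with brighter probe sets only (1.79%), and 4 when Ccdc42 and Ccdc87 were counted. It stayed at 2 with eBayes trend and robust and with at least 6 probe sets per gene. Leaving out 1 array gave 0 to 8 rises and 0 to 3 falls, where 2.01% to 16.1% of all genes rose and 0.125% to 2.41% fell. No member passed without Fn adult replicate 1, 2 or 3. In these 3 settings 2.01%, 2.9% and 2.57% of all genes rose, and 0.125%, 0.243% and 0.164% fell. With 1 array left out, the median difference of the members was -0.15 to 0.03 and turned positive only without Wt P21 replicate 3. After quantile normalization of the 6 arrays it was -0.20. On the 5 arrays without Wt P21 replicate 3 there were 8 rises and 3 falls. Settings were also run on these 5 arrays after the data were seen. Quantile normalization gave 4 rises and 14 falls (6.73% and 6.57% of all genes). There were 5 falls with the replicate block, 11 falls with the mean of the probe sets, and 5 rises and 5 falls with brighter probe sets only. Apart from quantile normalization, the shares of all genes in these settings are not given here, so the counts cannot be set against them. Rises with the block and the mean are not given either. No splicing index of a member passed in any setting run. The cause of these changes was not tested. Whether the numbers in the labels pair the arrays cannot be told from 3 arrays per group. Deviations from the group mean correlated at 0.24, -0.11 and -0.02 for replicates 1, 2 and 3 over all genes. Of the 3 Wt P21 arrays, 1 correlated best with its own number. With the replicate block Ccdc83 and Ccdc92 joined Ccdc24 and Ccdc178 among the falls.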
